A study of Rattus norvegicus with 6 samples.

Results

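This account covers 50 genes of the Wnt pathway, taken by name in 4 roles: 18 Wnt ligands, 12 receptors, 9 secreted inhibitors and 11 genes that beta-catenin switches on and that mostly feed back on the pathway. They were found on the array through probe sets with a single gene symbol, which gave values for 48 of the 50 genes, among 18166 genes measured in all. Each of the 48 had 1 probe set. The receptor Fzd3 and the ubiquitin ligase Znrf3 are not analysed here.

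The cells were NRK-52E, a kidney tubule epithelial line of the rat, in medium with 10% fetal calf serum. In 1 group, called NICD1, the intracellular domain of Notch1 was overexpressed from the pINDUCER21 vector, and the other group was labelled control. Each group had 3 arrays of total RNA. The sources used here do not state what the controls carried, whether and for how long an inducer was given, or whether a group is 1 clone. A level is the log2 of the deposited intensity, and a difference is NICD1 minus control on that scale. A gene was called changed at a limma adjusted p under 0.05 over all 18166 genes. As a guide to signal with no transcript, the background level was set at 5.72, the 95th percentile of the mean level of chemosensory receptor genes.

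Wnt proteins are secreted, lipid-modified signals. In the beta-catenin branch of the pathway, a Wnt bound by a frizzled receptor and the coreceptor Lrp5 or Lrp6 stops the destruction of beta-catenin, which then acts in the nucleus with Tcf and Lef proteins; genes such as Axin2 are transcribed in response and dampen the signal. Other Wnt signals run without beta-catenin, through planar cell polarity proteins or calcium. In the developing kidney, Wnt9b from the duct and Wnt4 in the condensing mesenchyme are required for tubules to form.

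Of the 48 measured genes, 7 were higher and 6 lower in NICD1 cells, together 27.1% of the set. Over all genes 14.7% were called, 7.45% higher and 7.22% lower. By role, 27.8% of ligands, 36.4% of receptors, 0% of secreted inhibitors and 40% of feedback targets were called. Of the 9 inhibitors, 5 lay below background in both groups. Among 18 ligands 5 rose and 0 fell; among 11 receptors 1 rose and 3 fell; among 9 secreted inhibitors 0 changed; and among 10 feedback targets 1 rose and 3 fell. Differences between the roles were not tested. The median difference was 0.01 over the 48 genes and 0.01 over all genes, and the median absolute difference was 0.11 over the 48 and 0.10 over all genes. The 2 groups did not overlap for 18 of the 48 genes, 11 with NICD1 higher and 7 with NICD1 lower; over all genes this held for 32.8%, with 17% higher and 15.7% lower. Of the 48, 35 lay above background in at least 1 group and 13 in neither. Over all 18166 genes, 11460 lay above it in at least 1 group.

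**Figure D1:**
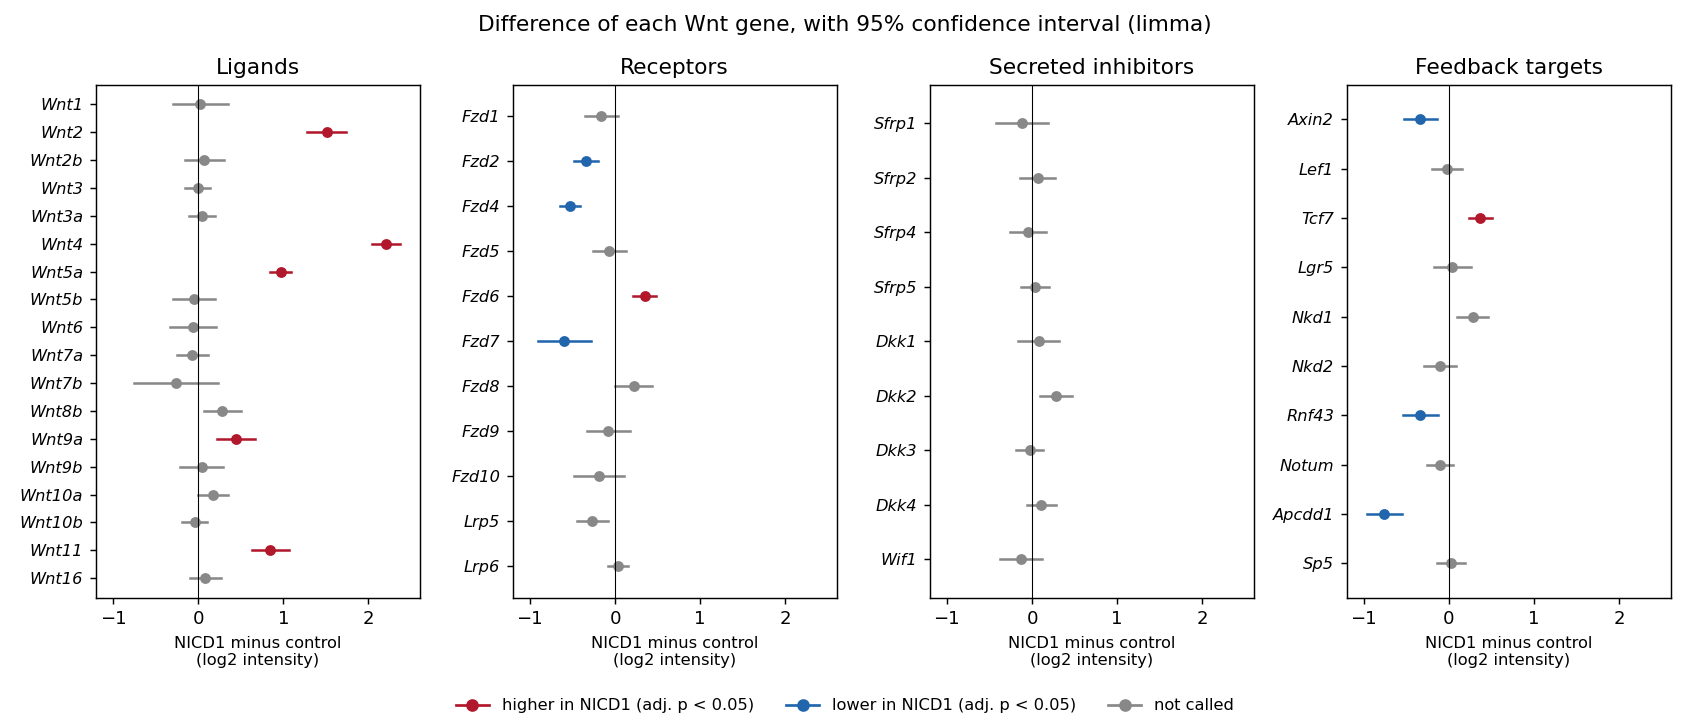
Difference in log2 intensity (NICD1 minus control, horizontal axis) of 48 Wnt genes in 4 panels by role; points are limma estimates from 3 arrays per group and bars are 95% confidence intervals. The 5 called ligands lie to the right of 0, with Wnt4 at 2.20 and Wnt2 at 1.51, while no secreted inhibitor is called.

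The labels were first checked on the gene whose domain was introduced. Notch1 was at 8.66, 8.39 and 8.51 on the control arrays and at 9.15, 9.12 and 9.26 on the NICD1 arrays, a rise of 0.66 (SE 0.08; adjusted p = 0.00181 by limma). Over the 20 ways to divide the arrays, the exact permutation test (two-sided) gave p = 0.1, and no lower value is possible with 3 against 3. The Notch target Hey1 rose by 3.42 (SE 0.14; limma adjusted p = 1.48e-05). Array medians of the linear intensity ran from 57.5 to 60.1. Control replicate 1 stood apart on the second principal component (11.8% of the variance), at 16.15 against -8.99 to 2.04 for the other arrays. RNA of a whole culture was measured, so a smaller share of cells with a transcript and less of it in each cell cannot be told apart.

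Lists of cell type markers were set beside the label of the line. Of 6 epithelial markers 3 lay above background, Krt8, Tjp1 and Cldn3, while Krt18, Epcam and Cdh1 lay below it in both groups. The proximal tubule markers Lrp2, Cubn, Slc34a1 and Slc5a2 were below background, and Aqp1 and Hnf4a above it. Among 6 fibroblast and pericyte markers, Col1a1 rose by 0.90 and Pdgfrb was above background without a call, while Pdgfra, Col1a2, Dcn and Lum lay below it. The summed linear intensity of that list was 522 to 622 in control and 700 to 740 in NICD1 arrays. The epithelial list summed to 5599 to 5833 and 6387 to 6627, with Krt8 higher (1.08, limma adjusted p = 3.24e-05), Tjp1 lower (-0.26, limma adjusted p = 0.0175) and Cldn3 not called (-0.12). The distal nephron list summed to 1241 to 1392 and 831 to 853. Gata3, by far the brightest gene of that list (mean 10.15 in control), was lower (-0.77). Slc12a3 lay above background in both groups and was not called (0.15). Calb1 was higher (0.29) below background, and Umod, Slc12a1 and Aqp2 lay below background. Leukocyte markers summed to 162 to 173 and 185 to 199, with Cd68 higher (0.27) and Ptprc below background; endothelial markers summed to 265 to 288 and 211 to 215, with Tek lower (-0.57) and Cdh5 below background. The part of these movements in the Wnt results was not tested.

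The ligands held the largest differences. Wnt4, a ligand needed for nephron formation (Entrez gene 84426), was at 7.77, 7.54 and 7.59 on the control arrays and at 9.83, 9.83 and 9.84 on the NICD1 arrays. All NICD1 arrays lay above all controls, and their spread was narrow. Group means were 7.63 ± 0.12 and 9.83 ± 0.003 (SD over 3 arrays), a rise of 2.20 (SE 0.07) or 4.61-fold (limma adjusted p = 7.54e-06).

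Wnt2, a beta-catenin ligand known from lung development (Entrez gene 114487), was at 5.73, 6.04 and 5.86 in control and at 7.26, 7.40 and 7.49 in NICD1 cells. Its control arrays sat at or just over background and its NICD1 arrays were clear of it. Group means of Wnt2 were 5.88 ± 0.16 and 7.38 ± 0.11 (SD over 3 arrays), a rise of 1.51 (SE 0.10) or 2.84-fold (limma adjusted p = 8.68e-05).

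Wnt5a, a ligand that acts mainly without beta-catenin (Entrez gene 64566), was at 9.56, 9.46 and 9.53 in control and at 10.50, 10.49 and 10.47 in NICD1 cells. It rose by 0.97 (SE 0.05), 1.96-fold (limma adjusted p = 3.89e-05). Wnt11, another ligand used largely outside the beta-catenin branch and expressed at ureteric bud tips in the embryonic kidney, was at 6.41, 6.06 and 6.14 in control and at 7.05, 7.06 and 7.04 in NICD1 cells. The NICD1 arrays were again close together, and the control arrays spread more. Wnt11 (Entrez gene 140584) rose by 0.85 (SE 0.09), 1.80-fold (limma adjusted p = 0.000955).

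Wnt9a, a ligand known from joint formation (Entrez gene 287357), was at 7.65, 7.55 and 7.33 in control and at 7.85, 8.05 and 7.96 in NICD1 cells. It rose by 0.44 (SE 0.09), 1.36-fold (limma adjusted p = 0.0209). The groups did not overlap, but the lowest NICD1 array and the highest control array were near each other. The call was lost without control replicate 2 (limma adjusted p = 0.0590), NICD1 replicate 2 (0.0726) or NICD1 replicate 3 (0.0640), and with the replicate number as a block (0.0539).

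The other 13 ligands were not called, with differences from -0.26 to 0.28. Of these, 8 lay above background in at least 1 group. Wnt3, Wnt6, Wnt7a, Wnt7b and Wnt16 were above it in both groups, and the groups overlapped for each of these 5. Wnt3 was at 5.89, 5.86 and 6.02 in control and 5.88, 5.95 and 5.92 in NICD1 cells (difference -0.01). Wnt6 was at 7.030, 6.768 and 6.834 in control and 6.999, 6.610 and 6.832 in NICD1 cells (-0.06). Wnt7a, known from limb patterning, was at 6.19, 6.16 and 6.05 in control and 6.00, 6.00 and 6.21 in NICD1 cells (-0.07). In these 3 ligands the spread within a group was as wide as the difference or wider. Wnt16 was at 5.64, 5.75 and 5.87 in control and 5.80, 5.77 and 5.92 in NICD1 cells (0.08). Wnt7b, which acts in the growth of the kidney medulla, was at 6.74, 6.40 and 6.28 in control and 6.53, 6.35 and 5.76 in NICD1 cells. NICD1 replicate 3 was the low array of Wnt7b, and its difference of -0.26 had the widest 95% interval of the 48 genes, from -0.75 to 0.23. Wnt9b, the duct ligand of kidney development, was at 5.61, 5.93 and 5.56 in control and 5.82, 5.65 and 5.75 in NICD1 cells, overlapping throughout at the background level. Wnt5b, whose mean passed background in control cells alone, was at 5.93, 5.67 and 5.66 in control and 5.55, 5.70 and 5.87 in NICD1 cells (-0.05), and control replicate 1 was its highest array. Wnt10a, whose mean passed background in NICD1 cells alone, was at 5.71, 5.71 and 5.53 in control and 5.74, 5.89 and 5.83 in NICD1 cells. The Wnt10a groups did not overlap, and the difference of 0.18 did not pass (limma adjusted p = 0.177). The other uncalled ligands, Wnt1, Wnt2b, Wnt3a, Wnt8b and Wnt10b, were below background, with array levels from 4.99 to 5.83. Among these Wnt8b had groups that did not overlap, at 5.12, 5.27 and 4.99 in control and 5.52, 5.43 and 5.28 in NICD1 cells, and a difference of 0.28 that did not pass (limma adjusted p = 0.0968).

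Several Wnt genes lie next to each other in the genome. In the order of protein-coding genes of the RefSeq rat annotation (GRCr8), 4 pairs of these ligands were direct neighbours. Beside Wnt9a, which rose by 0.44, lay Wnt3a, below background in both groups and with a difference of 0.05. The pairs Wnt6 with Wnt10a (-0.06 and 0.18), Wnt9b with Wnt3 (0.04 and -0.01) and Wnt10b with Wnt1 (-0.04 and 0.03) held no called gene. Wnt2, Wnt4, Wnt5a and Wnt11, with the 4 largest rises, had no neighbour among the 50 genes.

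**Figure D2:**
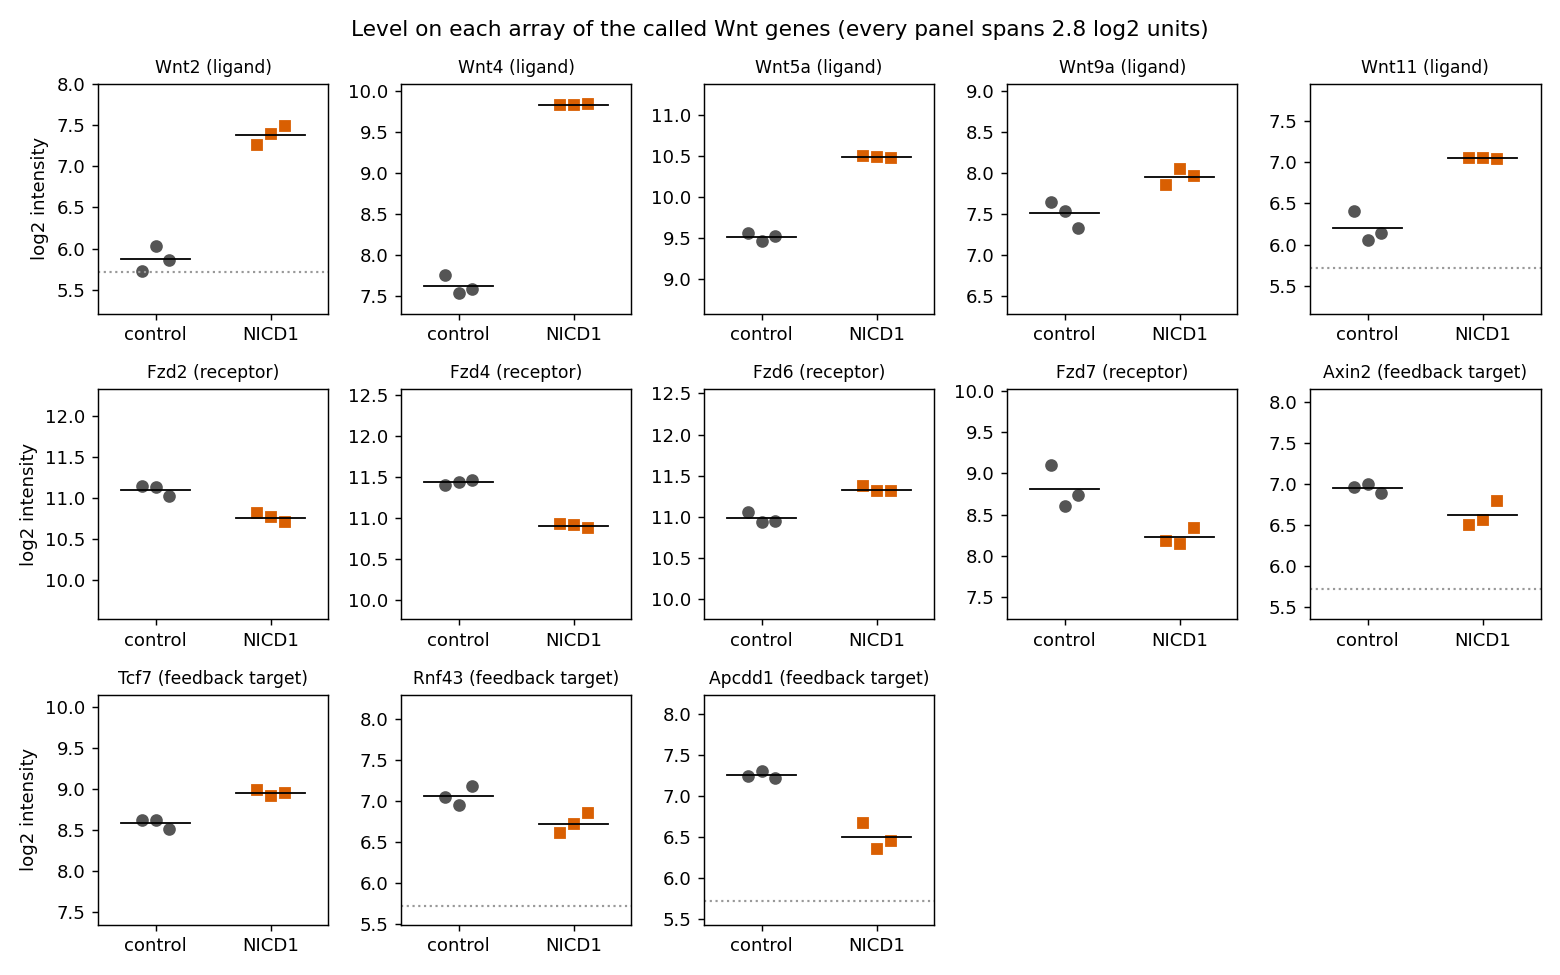
Log2 intensity (vertical axis) on each of the 3 control arrays (grey circles) and 3 NICD1 arrays (orange squares) of the 13 called Wnt genes; black lines are group means, every panel spans the same 2.8 log2 units and the dotted line is the background of 5.72 where it falls within the panel. The NICD1 arrays of Wnt4 lie at 9.83 to 9.84, above the controls at 7.54 to 7.77, and no panel shows an overlap between the groups.

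Because the largest rises were all in ligands, the RefSeq promoter sequences of the 4 ligands that rose most are printed, from 250 bases before to 50 bases after the annotated start (build GRCr8, written 5′ to 3′ on the strand of the gene). Capitals would mark the letters TGGGAA, the core bound by Rbpj, the DNA-binding partner of the Notch domain, or ATCAAAG and TTCAAAG, forms of the Tcf and Lef site, on either strand; these 4 windows hold none of them.
Wnt4, chr5:154797200-154797499, plus strand: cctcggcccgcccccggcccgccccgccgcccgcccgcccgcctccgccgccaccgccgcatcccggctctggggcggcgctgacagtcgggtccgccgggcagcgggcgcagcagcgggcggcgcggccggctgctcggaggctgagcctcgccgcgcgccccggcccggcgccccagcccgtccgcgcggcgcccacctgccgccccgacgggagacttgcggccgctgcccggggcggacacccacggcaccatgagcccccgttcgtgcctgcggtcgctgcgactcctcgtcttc
Wnt2, chr4:47340235-47340534, minus strand: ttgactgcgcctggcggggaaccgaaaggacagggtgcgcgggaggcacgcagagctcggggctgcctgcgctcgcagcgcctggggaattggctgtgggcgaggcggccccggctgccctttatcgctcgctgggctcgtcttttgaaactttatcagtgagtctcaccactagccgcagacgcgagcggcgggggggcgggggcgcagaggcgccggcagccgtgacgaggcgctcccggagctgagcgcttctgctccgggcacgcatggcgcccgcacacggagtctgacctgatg
Wnt5a, chr16:3703415-3703714, plus strand: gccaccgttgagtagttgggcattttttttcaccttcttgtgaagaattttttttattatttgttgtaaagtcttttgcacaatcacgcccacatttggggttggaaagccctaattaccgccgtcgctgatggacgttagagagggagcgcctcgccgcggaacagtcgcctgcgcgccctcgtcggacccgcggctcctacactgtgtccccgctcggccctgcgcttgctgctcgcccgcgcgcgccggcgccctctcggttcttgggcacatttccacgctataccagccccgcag
Wnt11, chr1:162549110-162549409, plus strand: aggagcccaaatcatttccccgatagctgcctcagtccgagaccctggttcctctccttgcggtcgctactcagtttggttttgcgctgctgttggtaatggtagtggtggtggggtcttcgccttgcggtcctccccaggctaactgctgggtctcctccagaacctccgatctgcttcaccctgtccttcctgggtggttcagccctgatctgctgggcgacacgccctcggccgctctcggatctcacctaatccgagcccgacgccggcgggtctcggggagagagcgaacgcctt
Promoters of this length were on hand for 34 of the 50 genes. The Rbpj letters were found in 8 of the 34 and in 25.1% of 27457 promoters; the Tcf and Lef letters were found in 6 of the 34 and in 8.64% of all. Of the 11 called genes with a promoter sequence, 1 held the Rbpj letters, Wnt9a, and 3 held the Tcf and Lef letters, Axin2, Fzd7 and Tcf7. A match of letters is a description of the window and not a measured site. The G and C share was 83.3% in the Wnt4 window, 70.0% in that of Wnt2, 61.7% in that of Wnt11 and 58.3% in that of Wnt5a, against a median of 52.3% over all promoters.

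The receptors changed in both directions. Frizzleds are the membrane receptors of Wnt ligands. Fzd4, which also serves the ligand norrin in retinal vessels (Entrez gene 64558), was at 11.41, 11.44 and 11.47 in control and at 10.93, 10.91 and 10.88 in NICD1 cells. Group means of Fzd4 were 11.44 ± 0.03 and 10.91 ± 0.03 (SD over 3 arrays); it fell by 0.53 (SE 0.05), to 0.691 of the control level (limma adjusted p = 0.00048). Fzd2 was at 11.15, 11.14 and 11.03 in control and at 10.81, 10.77 and 10.71 in NICD1 cells, and fell by 0.34 (SE 0.06; limma adjusted p = 0.00915). Both sets of arrays were tight and separate.

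Fzd7 was at 9.11, 8.61 and 8.73 in control and at 8.18, 8.15 and 8.34 in NICD1 cells. Control replicate 1 was the high array, and the groups did not overlap. Fzd7 fell by 0.60 (SE 0.13; limma adjusted p = 0.0233), and by 0.45 without control replicate 1 (0.0208). That call was lost without control replicate 3 (limma adjusted p = 0.0527), NICD1 replicate 1 (0.0761) or NICD1 replicate 2 (0.0775).

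Fzd6 was the only called receptor that rose. This frizzled, known from the orientation of hair follicles through planar cell polarity (Entrez gene 282581), was at 11.06, 10.94 and 10.94 in control and at 11.37, 11.31 and 11.32 in NICD1 cells. The rise was 0.35 (SE 0.06), 1.27-fold (limma adjusted p = 0.00685).

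Of the other 5 measured frizzleds none was called. Fzd1 was at 7.28, 7.42 and 7.34 in control and 7.03, 7.23 and 7.29 in NICD1 cells (-0.16). Fzd5 was at 7.99, 7.83 and 7.97 in control and 7.73, 7.89 and 7.97 in NICD1 cells (-0.07). Fzd8 was at 7.63, 7.47 and 7.61 in control and 7.84, 7.91 and 7.61 in NICD1 cells (0.22; limma adjusted p = 0.187). In Fzd8 NICD1 replicates 1 and 2 lay above all controls and replicate 3 among them. Fzd10 was at 6.69, 6.83 and 6.99 in control and 6.75, 6.79 and 6.40 in NICD1 cells (-0.19), with NICD1 replicate 3 the low array. These 4 lay above background in both groups with overlapping values. Fzd9, whose mean passed background in control cells alone, was at 5.955, 5.723 and 5.564 in control and 5.623, 5.610 and 5.777 in NICD1 cells (-0.08), and its groups overlapped too. The coreceptor Lrp6 was at 10.25, 10.19 and 10.25 in control and 10.27, 10.27 and 10.25 in NICD1 cells, with a difference of 0.04 and a 95% interval of -0.08 to 0.15. Its relative Lrp5 was at 11.001, 10.731 and 10.865 in control and at 10.641, 10.554 and 10.602 in NICD1 cells. The Lrp5 groups did not overlap, yet the difference of -0.27 missed the threshold (limma adjusted p = 0.0652), and passed it without control replicate 2 (0.0362), after median centring (0.0362), once the dimmest 30% of genes were dropped (0.0326) and with a variance trend (0.00653). A probe set shared by Lrp5 and Tvp23b, left out of the gene values, had means of 5.94 in control and 6.09 in NICD1 cells.

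None of the 9 secreted inhibitors was called by limma. At an unadjusted p under 0.05, 1 was higher and 0 lower, where over all genes 13.9% were higher and 12.9% lower. Sfrp proteins and Wif1 bind Wnt ligands outside the cell, and some Dkk proteins, such as Dkk1, block the Lrp coreceptors. Differences ran from -0.13 to 0.28, and their 95% intervals from -0.42 to 0.47. Sfrp5 was at 6.30, 6.24 and 6.18 in control and 6.35, 6.16 and 6.32 in NICD1 cells (0.04). Sfrp2 was at 5.89, 6.05 and 6.00 in control and 6.21, 6.00 and 5.93 in NICD1 cells (0.07). Dkk3 was at 5.88, 5.93 and 6.04 in control and 5.87, 5.89 and 6.01 in NICD1 cells (-0.03). These 3 were above background in both groups and their groups overlapped.

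Dkk4, whose mean passed background in NICD1 cells alone, was at 5.588, 5.734 and 5.601 in control and 5.660, 5.735 and 5.854 in NICD1 cells (0.11), with overlapping groups. Sfrp1, Sfrp4, Dkk1, Dkk2 and Wif1 lay below background, with array levels from 4.02 to 5.78. Dkk2 was the inhibitor with separate groups, at 5.25, 5.48 and 5.22 in control and 5.59, 5.55 and 5.65 in NICD1 cells. Its difference of 0.28 missed the threshold (limma adjusted p = 0.0609), and it passed without control replicate 2 (0.0179) and once the dimmest 30% of genes were dropped (0.0303).

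The feedback targets that were called moved mostly down. Apcdd1, a membrane protein that inhibits Wnt signalling at the cell surface (Entrez gene 689616), was at 7.24, 7.31 and 7.21 in control and at 6.67, 6.36 and 6.45 in NICD1 cells. Group means of Apcdd1 were 7.25 ± 0.05 and 6.49 ± 0.16 (SD over 3 arrays); it fell by 0.76 (SE 0.09), to 0.590 of the control level (limma adjusted p = 0.00125). The controls were tight, NICD1 replicate 1 was the nearest to them, and the groups did not overlap.

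Axin2, the scaffold of the beta-catenin destruction complex and the most widely used readout of that branch (Entrez gene 29134), was at 6.97, 7.01 and 6.90 in control and at 6.51, 6.56 and 6.79 in NICD1 cells. NICD1 replicate 3 lay close to the controls. Axin2 fell by 0.34 (SE 0.08), to 0.792 of the control level (limma adjusted p = 0.0375). The call was lost without any 1 array other than NICD1 replicate 3, with adjusted p from 0.0720 to 0.118 and differences from -0.37 to -0.28, and with the replicate number as a block (0.0909).

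Rnf43, a ubiquitin ligase that removes frizzleds from the membrane (Entrez gene 303412), was at 7.05, 6.95 and 7.18 in control and at 6.60, 6.71 and 6.85 in NICD1 cells. It fell by 0.34 (SE 0.09), to 0.791 of the control level (limma adjusted p = 0.0414). The same 5 omissions as for Axin2 ended this call, with limma adjusted p from 0.0508 to 0.124 and differences from -0.39 to -0.28. Counting only the falls that remained, the feedback targets then held 1, Apcdd1.

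Tcf7, which encodes a DNA-binding partner of beta-catenin (Entrez gene 363595), was at 8.63, 8.63 and 8.51 in control and at 8.99, 8.92 and 8.96 in NICD1 cells. It rose by 0.37 (SE 0.06), 1.29-fold (limma adjusted p = 0.00569), the opposite sign to Axin2. Nkd1, which binds dishevelled and dampens the pathway, was at 7.07, 6.96 and 6.94 in control and 7.26, 7.38 and 7.16 in NICD1 cells. Its groups did not overlap, and its difference of 0.28 just missed the threshold (limma adjusted p = 0.0518); it passed without NICD1 replicate 3 (0.0457), with array weights (0.0358), with a variance trend over intensity (0.0329) and once the dimmest 30% of genes were dropped (0.0249), which made 2 called rises among the targets in each case.

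Nkd2, a relative of Nkd1, was at 6.45, 6.44 and 6.30 in control and 6.15, 6.36 and 6.37 in NICD1 cells (-0.10). The transcription factor Sp5 was at 6.30, 6.17 and 6.26 in control and 6.18, 6.36 and 6.27 in NICD1 cells (0.02). Both were above background and not called, and their groups overlapped. Lef1, the R-spondin receptor Lgr5, and Notum, an enzyme that strips the lipid from Wnt proteins, lay below background in both groups, with array levels from 4.62 to 5.27. The 10 measured targets therefore did not share a sign: 4 had values above 0 and 6 below.

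The promoter window of Axin2 held the Tcf and Lef letters at 2 places, beginning 232 and 132 bases before the start, both on the opposite strand. Its window is printed with those letters in capitals, beside 40-base stretches around the matches of Tcf7, Fzd7 (Tcf and Lef letters) and Wnt9a (Rbpj letters), from the same RefSeq table and build. These windows were chosen after the search.
Axin2, chr10:94398535-94398834, plus strand: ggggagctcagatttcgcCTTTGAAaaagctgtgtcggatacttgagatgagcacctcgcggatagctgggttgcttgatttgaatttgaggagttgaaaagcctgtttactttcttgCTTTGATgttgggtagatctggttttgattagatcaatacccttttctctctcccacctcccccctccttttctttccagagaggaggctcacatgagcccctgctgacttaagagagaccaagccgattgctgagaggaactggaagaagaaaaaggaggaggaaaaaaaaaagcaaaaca
Tcf7, chr10:36954261-36954300, minus strand: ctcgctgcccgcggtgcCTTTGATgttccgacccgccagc
Fzd7, chr9:68425520-68425559, plus strand: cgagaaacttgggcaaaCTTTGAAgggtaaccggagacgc
Wnt9a, chr10:44593487-44593526, plus strand: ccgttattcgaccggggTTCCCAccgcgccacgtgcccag
The Tcf7 and Fzd7 matches began 4 bases and 1 base before the start, and the Wnt9a match 187 bases before it. Of these 4 genes Axin2 and Fzd7 fell and Tcf7 and Wnt9a rose.

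**Figure D3:**
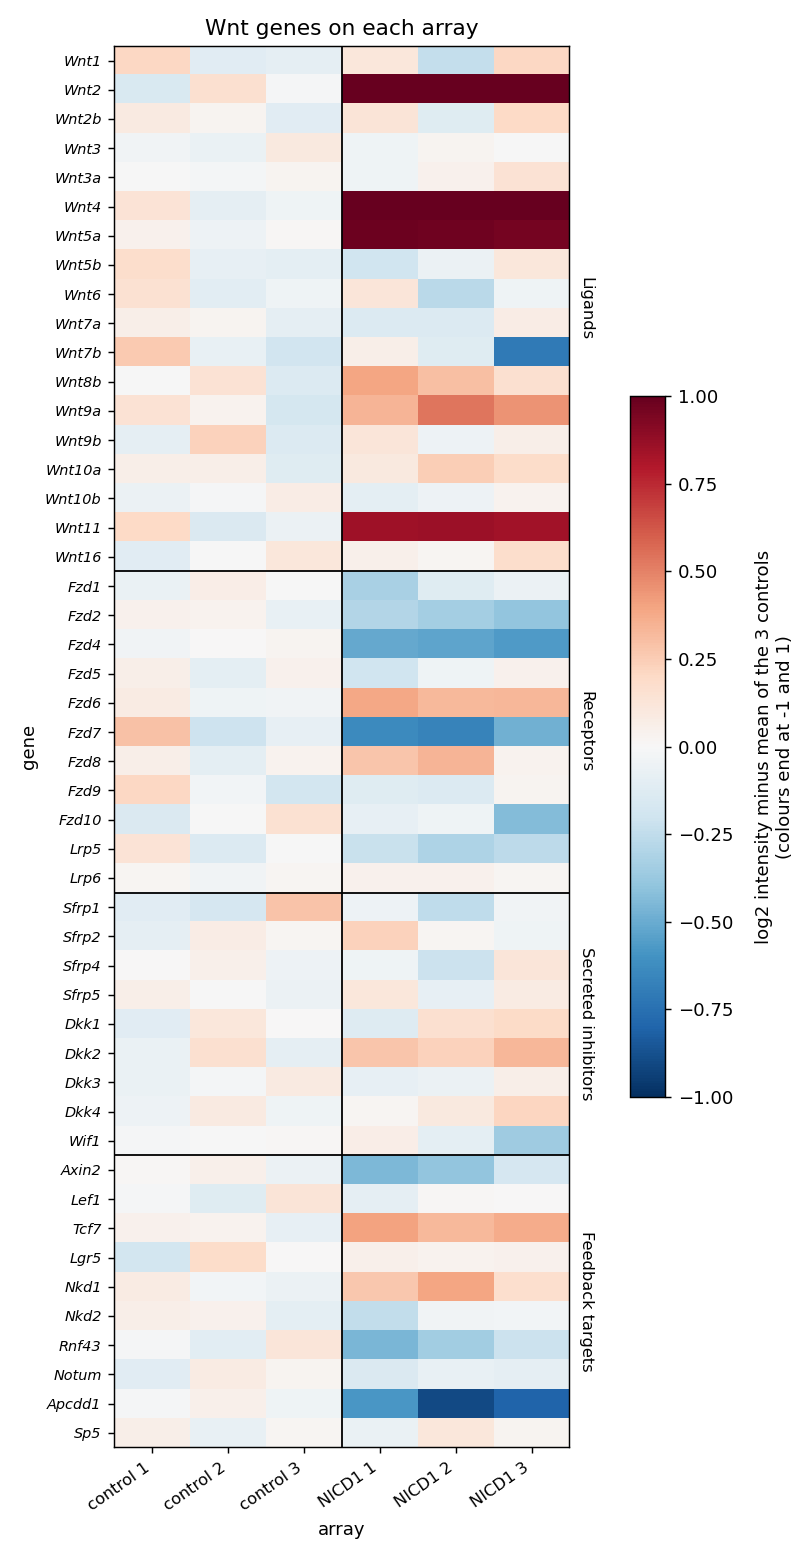
Log2 intensity of 48 Wnt genes (rows, by role) on each of the 6 arrays (columns), as the difference from the mean of the 3 controls; red is higher and blue lower, and colours end at -1 and 1. The rises of Wnt2, Wnt4, Wnt5a and Wnt11 and the falls of Fzd2, Fzd4, Fzd7 and Apcdd1 appear on all 3 NICD1 arrays, and control replicate 1 is the high control for Fzd7 and Wnt11.

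Genes acting before, beside and after these members came from 6 further lists holding 82 genes, of which 77 were measured. Of the 77, 14 rose and 7 fell, 27.3% in all, against 14.7% of all genes. Above background in at least 1 group lay 65 of the 77, and 11460 of all 18166 genes. Once the dimmest 30% of genes were dropped, 25.3% of the remaining genes were called. Under that filter 17 of the further genes rose and 9 fell, and 39% of the 41 remaining members were called. The 27.3% comes from the fit without the filter and is not comparable with the 25.3%. Among proteins that release ligands or assist receptors, 1 of 13 rose and 2 fell. Lgr4, a receptor for R-spondins, which strengthen Wnt signals, was at 9.66, 9.73 and 9.70 in control and at 9.03, 9.09 and 9.08 in NICD1 cells, and fell by 0.63 (SE 0.05; limma adjusted p = 0.000239). Wls, the carrier that brings Wnt proteins to the surface, fell by 0.31 (SE 0.05; limma adjusted p = 0.00698). Ror1, a receptor tyrosine kinase for Wnt5a, rose by 0.45 (SE 0.08; limma adjusted p = 0.00847).

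Among 9 other inhibitors, Kremen1, a receptor for Dkk proteins, rose by 0.43 (SE 0.07; limma adjusted p = 0.00904), and Tpbg, a membrane glycoprotein, fell by 0.48 (SE 0.07; limma adjusted p = 0.00399). In the cytoplasmic relay and destruction complex 2 of 15 rose and 2 fell, 26.7% against 14.7% of all genes. Amer1, an adaptor that binds Apc at the membrane, was at 10.58, 10.49 and 10.45 in control and at 9.25, 9.34 and 9.38 in NICD1 cells. It fell by 1.18 (SE 0.06), to 0.441 of the control level (limma adjusted p = 3.65e-05), the largest fall among the members and these lists. Dvl1, a dishevelled protein, fell by 0.32 (SE 0.05), and the kinase Csnk1e rose by 0.29 (SE 0.05).

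The kinase Gsk3b rose by 0.27 (SE 0.06; limma adjusted p = 0.0317). That call was lost without any 1 array other than control replicate 1 (adjusted p from 0.0803 to 0.102), after median centring (0.0504) and with the replicate number as a block (0.0763). Ctnnb1, which encodes beta-catenin itself, was at 11.84 to 11.85 in control and 11.88 to 11.93 in NICD1 cells, a difference of 0.07 that was not called, and Apc (0.01) and Axin1 (0.08) were not called either.

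Of 12 nuclear factors 3 rose and 2 fell, 41.7% against 14.7% of all genes. Tcf7l2, a DNA-binding partner of beta-catenin, was at 7.87, 7.74 and 7.58 in control and at 8.40, 8.48 and 8.39 in NICD1 cells, and rose by 0.69 (SE 0.08; limma adjusted p = 0.00142). The corepressor Tle1 rose by 0.79 (SE 0.09) and Tcf7l1, a mostly repressive Tcf, by 0.40 (SE 0.07). Pygo1, a coactivator of beta-catenin, fell by 0.33 (SE 0.06). The fall of the corepressor Tle4, 0.31 (limma adjusted p = 0.0365), was no longer called when any 1 array but control replicate 2 was left out (0.0605 to 0.113).

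Among 12 planar cell polarity genes 2 rose and 0 fell, so 16.7% were called, near the 14.7% of all genes. Celsr2, an atypical cadherin, was at 9.38, 8.97 and 9.01 in control and at 10.46, 10.31 and 10.43 in NICD1 cells. It rose by 1.28 (SE 0.11), 2.43-fold (limma adjusted p = 0.000391). Daam1, a formin that binds dishevelled, rose by 1.04 (SE 0.06), 2.06-fold (limma adjusted p = 4e-05). Vangl1 (-0.05), Vangl2 (0.17) and Prickle1 (-0.26), also on this list, were not called.

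Of 16 other genes reported as Wnt targets in various tissues, 5 rose and 0 fell, where the feedback targets held 1 rise and 3 falls. Over all genes 7.45% were called higher and 7.22% lower. Among those 3 falls, Axin2 and Rnf43 lost their calls when any 1 array other than NICD1 replicate 3 was left out. Fosl1, an AP-1 factor, was at 8.09, 8.43 and 8.57 in control and at 9.79, 9.76 and 9.83 in NICD1 cells, and rose by 1.43 (SE 0.12; limma adjusted p = 0.000262). Bambi, a decoy receptor for TGF-beta (0.68), the hyaluronan receptor Cd44 (0.65), Myc (0.52), which is a Notch target as well, and the AP-1 factor Jun (0.60) also rose. The Jun value is the average of 2 probe sets, and the brighter of them alone gave 0.83. Ccnd1 (-0.18; limma adjusted p = 0.0678) was not called, and Sox9, Ascl2 and Tnfrsf19 lay below background. The difference between these lists was not tested.

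**Figure D4:**
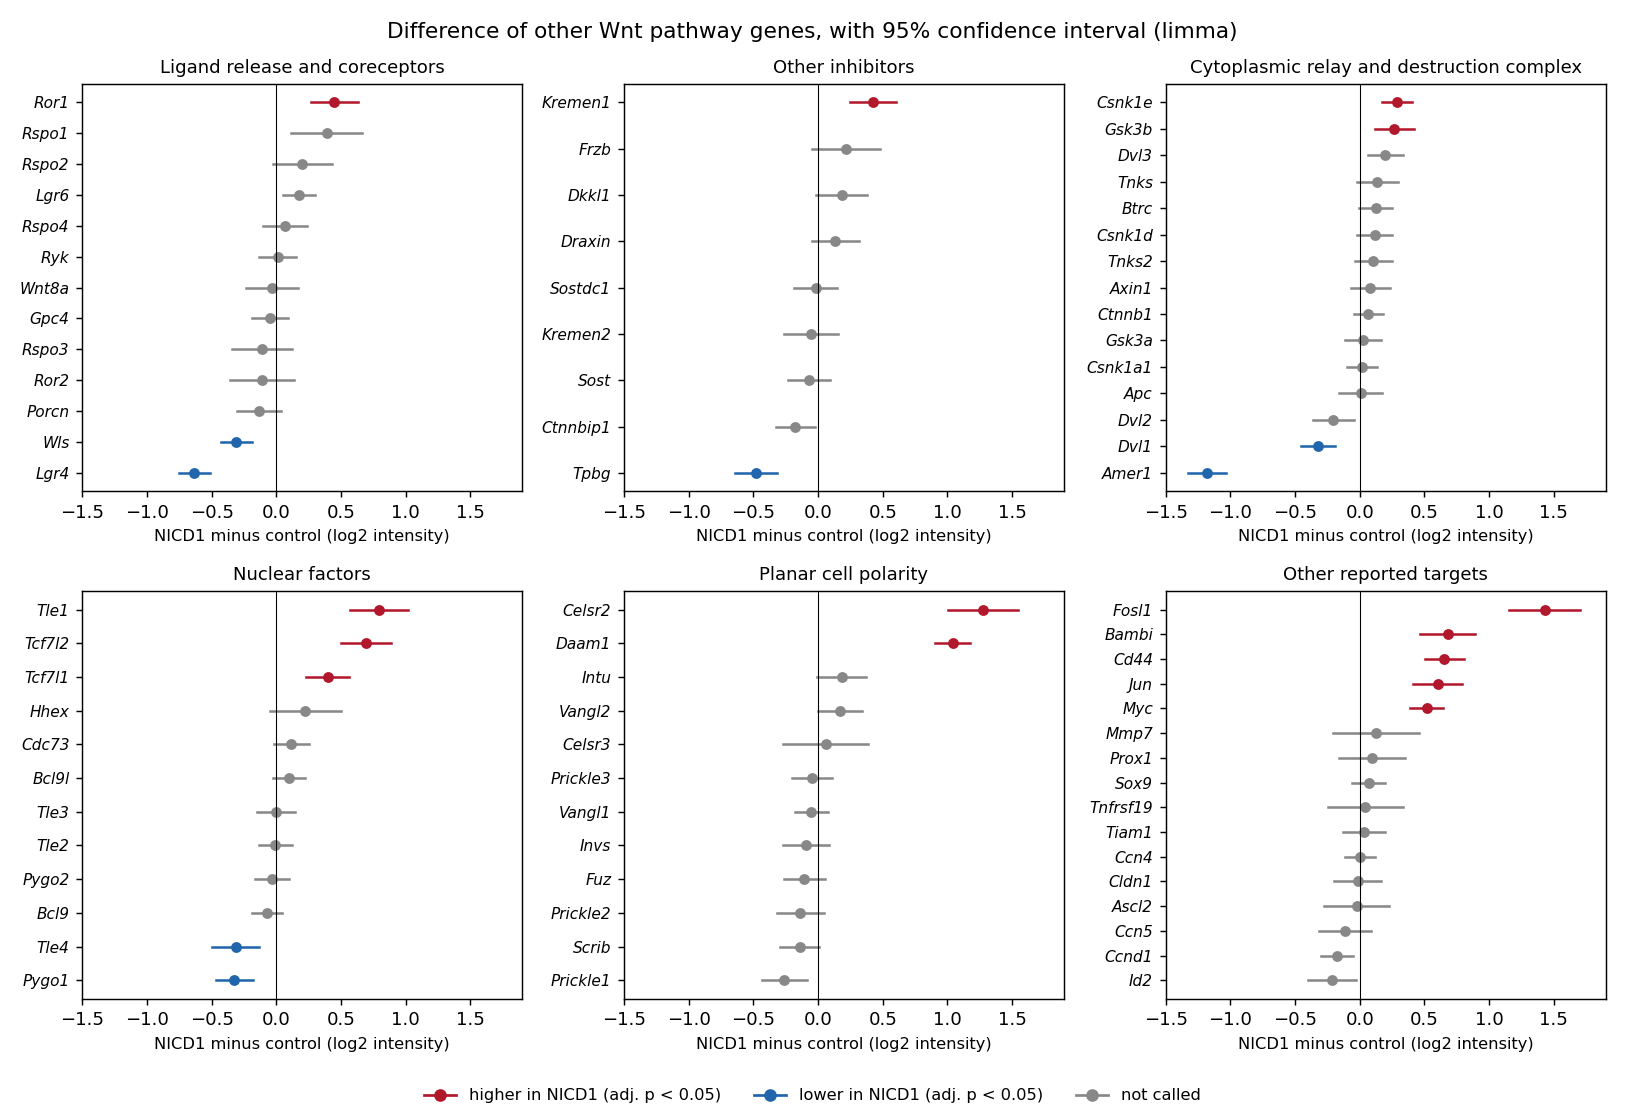
Difference in log2 intensity (NICD1 minus control, horizontal axis) of 77 further Wnt pathway genes in 6 lists, as limma estimates from 3 arrays per group with 95% confidence intervals. Fosl1 at 1.43 and Celsr2 at 1.28 lie farthest to the right and Amer1 at -1.18 farthest to the left.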

How the data were processed

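Total RNA of 6 samples, 3 control and 3 NICD1, was carried to biotin-labelled cDNA with Affymetrix kits, per the labels' protocols. The labels do not say whether replicates were separate cultures; the p-values describe the spread among these 6 samples only, and that spread may be technical. The authors deposited an RMA intensity for each probe set on each array; Affymetrix Expression Console is named in the submitters' processing notes. RMA equalises array distributions and would hide a change common to most genes. The sources used here do not state the genome build or tool versions. The values were linear, so log2 was taken with no pseudocount.

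Of 36685 probe sets, the platform annotation gave 18511 a single symbol, 575 several symbols and 17599 no symbol. Those with 1 symbol were averaged per symbol. All 48 measured members had Entrez identifiers in RefSeq GRCr8, which changed 0 symbols. Groups were compared with limma 3.58.1 (lmFit, eBayes, two-sided, group as the single term, Benjamini-Hochberg over 18166 genes) in R 4.3.3. Background was the 95th percentile of 1397 chemosensory receptor genes and removed no gene. The members and lists were chosen with earlier results of these data known. Per-array values are given for members that were called or above background in at least 1 group, and up to 4 called genes with the smallest adjusted p are named per further list; Wnt8b, Dkk2, Tle4 and Jun were added after their values were seen, as were the uncalled genes named beside the further lists. In simulated data over 18166 genes, changes of 0.3, 0.5 and 1 on the log2 scale were given to 67, 67 and 66 genes. There limma recovered 17.9%, 52.2% and 90.9% of them, in that order, with 3 false calls of 110. Far fewer genes were changed there than the 2666 called in the real comparison, so these shares do not carry over to it. Alternatives were median centring, a second quantile normalisation, array weights, the brightest probe set, a variance trend over intensity with robust moderation, omission of the dimmest 30% of genes, the replicate block, a threshold of 0.01, other background percentiles and omission of each array. The number of arrays limits the precision. Figures used matplotlib 3.10.9 in Python 3.11.15.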

Additional observations from a re-analysis of the deposited data

How the results depend on the processing

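Wnt2, Wnt4, Wnt5a, Wnt11, Fzd2, Fzd4, Fzd6, Tcf7 and Apcdd1 kept their direction under all 13 other normalisations, filters, fits and omissions of an array. Their calls at 0.05 held there as well, and in the main fit they also passed at 0.01. Over the 13 settings the highest limma adjusted p was 0.0403 for Fzd2, 0.0328 for Fzd6 and 0.0284 for Tcf7. Among these 13, the omission of dim genes, the variance trend and the replicate block left each difference as it was and could change only the call. The brightest probe set could not alter a member's difference either, because each measured member had 1 probe set. At 0.01, where all called genes numbered 1473 in place of 2666, the falls numbered 3 among all members and 1 among feedback targets. When each array was left out in turn, the falls numbered 3 to 6 among all members and 1 to 3 among feedback targets, the rises of feedback targets 1 to 2, and those of secreted inhibitors 0 to 1. Feedback target rises numbered 2, and inhibitor rises 1, without the dimmest 30% of genes; target rises numbered 2 with a variance trend over intensity and 2 with array weights. Counts of ligands, of receptors and of the further pathway genes stayed within 1.5 times. With a 99th percentile as background 21 members lay above it, in place of 35. The replicate numbers did not pair the samples (correlations of deviations -0.032, -0.011 and -0.013); with the replicate block 11 members were called, Wnt9a and Axin2 being lost.

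Values near 0 changed sign in uncalled genes only. With 1 array left out they ran from -0.0678 to 0.0175 for Dkk3, -0.1214 to 0.0005 for Fzd5, -0.169 to 0.0265 for Fzd9, -0.0128 to 0.1259 for Sfrp2, -0.0004 to 0.0962 for Sfrp5, -0.0192 to 0.0696 for Sp5, -0.0374 to 0.0413 for Wnt3, -0.1281 to 0.0395 for Wnt5b, -0.156 to 0.0386 for Wnt6 and -0.0267 to 0.1605 for Wnt9b. Sp5 was at -0.0064 after median centring and -0.0098 after a second quantile normalisation, and Wnt5b at 0.0027 with array weights. The cause of these changes was not tested. Levels near background limit what can be said of 13 members below it.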
